A study of Arabidopsis with 12 samples.

Results

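The IRT and ZIP metal transporters of Arabidopsis thaliana were examined in seedling RNA of the wild type and of the pad4 mutant. The 10 genes IRT1, IRT2, IRT3, ZIP1, ZIP2, ZIP3, ZIP4, ZIP5, ZIP9 and ZIP11 were taken by name from an expression table of 28693 loci. The list was chosen with earlier results of these data known, and all 10 were kept whatever their values. The wild type was the accession Col-0, and pad4 is phytoalexin deficient 4, a mutant in a gene that acts in salicylic acid defence signalling (its allele is not given in the sources used here). After germination on solid Murashige and Skoog medium, seedlings of both genotypes were moved for 7 d to complete medium (labelled +Fe) or to that medium with Fe left out (labelled -Fe). The chamber was held at 24 °C and gave 16 h of light (140 µmol photons m-2 s-1) and 8 h of dark. The 2 genotypes and 2 labels made 4 groups of 3 libraries.

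ZIP proteins carry divalent metal ions, chiefly Zn and Fe, across membranes into the cytosol. IRT1 is the main importer of Fe at the surface of Arabidopsis roots, rises there when Fe is short, and also lets in Zn, Mn, Co and Cd. Several ZIP genes instead answer to Zn supply, through the transcription factors bZIP19 and bZIP23, which act on IRT3, ZIP1, ZIP3, ZIP4, ZIP5 and ZIP9 when Zn is short.

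bHLH100, IMA1 and FER1, genes that report Fe status, ran against the Fe labels in all 12 libraries. FIT, a regulator gene given with the last list, ran with the labels within each genotype, but its values overlapped between labels across genotypes. Groups are therefore named by label throughout, and every direction is one between labels. bHLH100, a transcription factor gene induced by Fe shortage, ran from 976 to 1137 FPKM (fragments scaled to gene length and to the library's total) at the +Fe label and from 0.122 to 0.666 FPKM at the -Fe label. IMA1 ran from 660 to 753 FPKM in the wild type labelled +Fe and from 1.88 to 3.79 FPKM in the wild type labelled -Fe. In pad4 IMA1 ran from 536 to 635 FPKM at the +Fe label and from 3.30 to 5.50 FPKM at the -Fe label. FER1, whose ferritin stores Fe and which Fe induces, ran from 10.3 to 11.8 FPKM at the +Fe label and from 271 to 333 FPKM at the -Fe label. PAD4 ran from 18.1 to 22.0 FPKM in Col-0 and from 10.3 to 13.6 FPKM in pad4, so the genotype labels separated without overlap and some transcript of the mutated gene was still measured. On the tissue the labels differ, with shoot in a sample field, both leaves and roots in the extraction text, and whole seedlings in the design. The 6 shoot markers were all above 1 FPKM, and RBCS1A averaged 9420 FPKM. Among the 19 root markers, SCR averaged 19.6 FPKM and PYK10 averaged 337 FPKM, whereas 6 markers, among them the root hair genes RHD6, RSL4, COBL9 and EXPA18, stayed under 0.5 FPKM in all libraries. Library totals ran from 894824 to 1004002 FPKM, and the number of fragments behind them is not given in the sources used here. Within each group 1 library stood apart along an axis that the 4 groups shared: wild type labelled +Fe 2, wild type labelled -Fe 2, pad4 labelled +Fe 2 and pad4 labelled -Fe 3 (correlations of their deviations over loci 0.41 to 0.51). Nothing in the labels says that replicates were separate cultures, so p-values measure the spread between these libraries, which may be technical.

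As a family, the 10 genes held most transcript in libraries labelled +Fe. Their summed level was 239.8 ± 18.2 FPKM (SD, n = 3) in the wild type labelled +Fe and 130.6 ± 15.6 FPKM in the wild type labelled -Fe. In pad4 it was 176.0 ± 7.81 FPKM at the +Fe label and 84.3 ± 9.53 FPKM at the -Fe label. The makeup of the sum also differed: ZIP11 gave 24.4% of it in the wild type labelled +Fe and 62.0% in the wild type labelled -Fe, and 21.1% and 56.8% in pad4. ZIP4 went the other way, from 18.5% to 4.48% in the wild type and from 20.5% to 5.42% in pad4. Since these were bulk samples, fewer cells of a type and less RNA per cell cannot be told apart, here and in every value that follows.

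**Figure D1:**
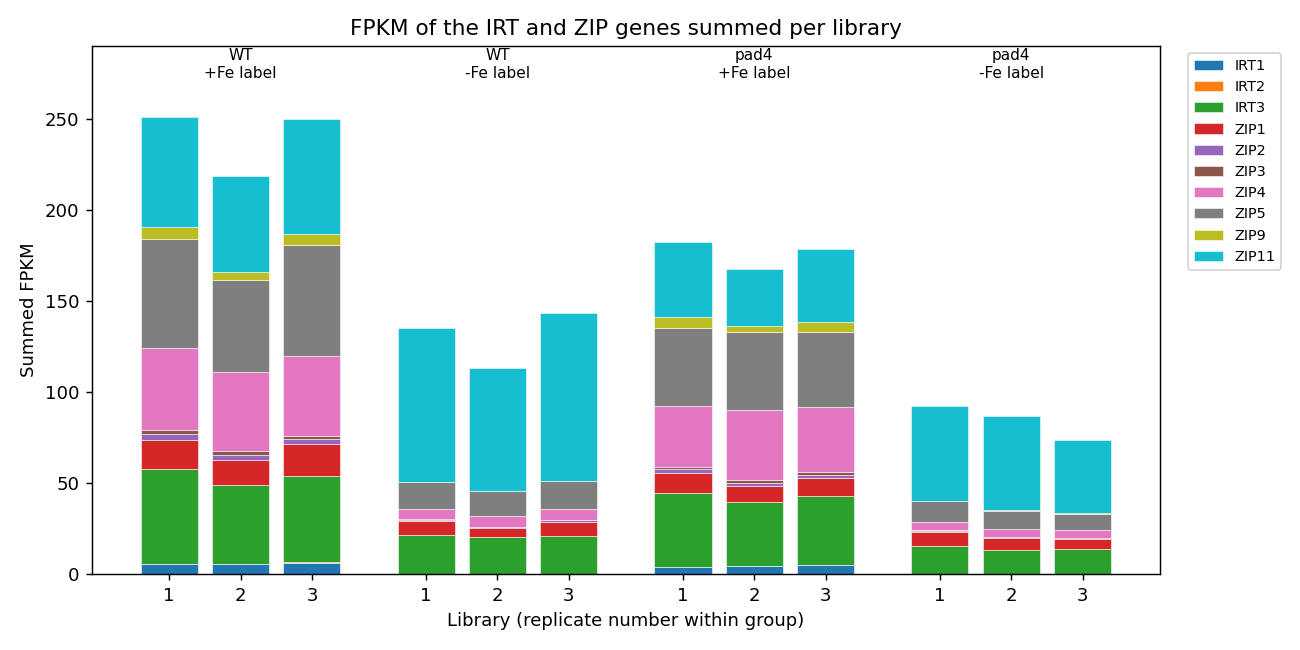
FPKM of the 10 IRT and ZIP genes stacked per library, with the 3 libraries of each group numbered on the x axis and summed FPKM on the y axis. All 6 libraries labelled +Fe stand above all 6 labelled -Fe, and ZIP11 takes the largest slice in each library labelled -Fe.

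Per gene length, 4 genes shared the top of the family in the wild type labelled +Fe: ZIP11 (58.6 ± 5.26 FPKM), ZIP5 (57.0 ± 5.75 FPKM), IRT3 (47.7 ± 4.17 FPKM) and ZIP4 (44.2 ± 0.600 FPKM), each overlapping the next in its range. ZIP1 followed at 15.5 ± 2.07 FPKM, clear of ZIP4 above and ZIP9 below. ZIP9 (5.85 ± 1.03 FPKM) and IRT1 (5.76 ± 0.419 FPKM) overlapped, and ZIP2 (3.13 ± 0.335 FPKM), ZIP3 (1.91 ± 0.278 FPKM) and IRT2 (0.193 ± 0.140 FPKM) came last without overlap between neighbours. In the wild type labelled -Fe, ZIP11 (81.3 ± 12.7 FPKM) stood alone at the top, followed without overlap by IRT3 and ZIP5. ZIP1 and ZIP4 overlapped below them, and ZIP2, ZIP3, ZIP9 and IRT2 each overlapped the next in order. In pad4 labelled +Fe, ZIP5 (42.3 ± 1.15 FPKM) had the highest mean, clear of IRT3 and ZIP4 but overlapping ZIP11. IRT3, ZIP11 and ZIP4 overlapped behind it. The order in pad4 labelled -Fe was ZIP11, IRT3, ZIP5, ZIP1 and ZIP4, with no overlap between neighbours.

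**Figure D2:**
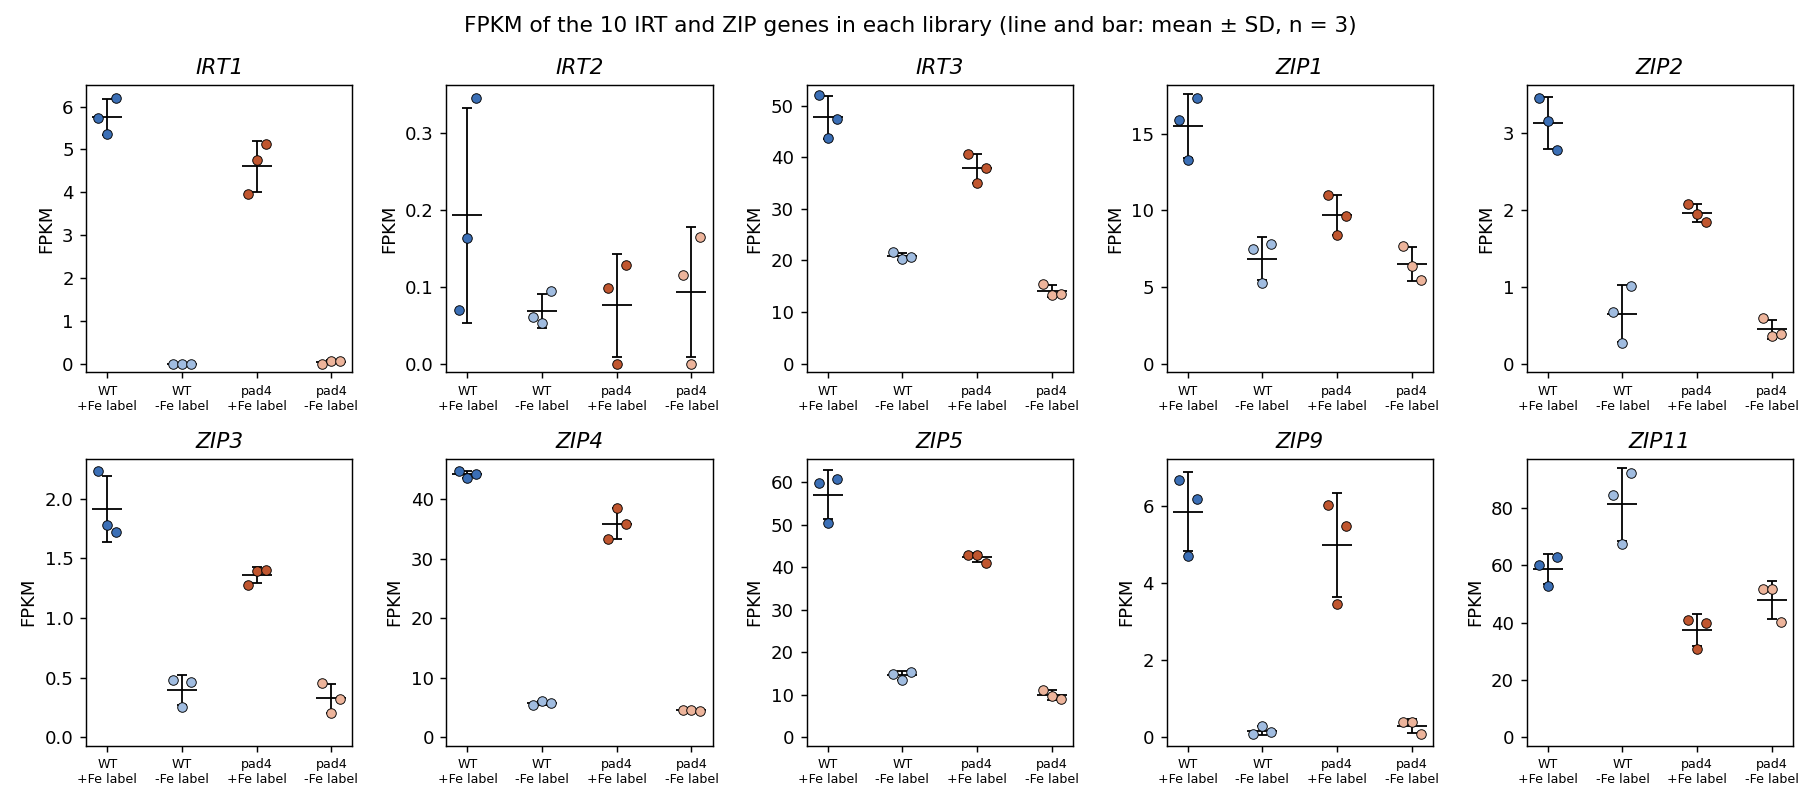
FPKM of each IRT and ZIP gene (y axis, a separate linear scale per gene) in the 3 libraries of each group (x axis), with points for libraries and lines and bars for the mean ± SD. IRT1, IRT3, ZIP1, ZIP2, ZIP3, ZIP4, ZIP5 and ZIP9 are lower at the -Fe label with no overlap in either genotype, and ZIP11 has its highest values in the wild type labelled -Fe.

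The first question of the design is how the Fe label changed the transcripts in each genotype. In the wild type, transcripts of IRT1, IRT3, ZIP1, ZIP2, ZIP3, ZIP4, ZIP5 and ZIP9 were lower in libraries labelled -Fe. The fall was 7.66-fold for ZIP4 and 3.91-fold for ZIP5, while ZIP11 was 1.39-fold higher. The same 8 genes were lower in pad4. Differences were tested on log2(FPKM + 1) with limma over 20173 loci that reached 1 FPKM in at least 3 libraries, and a call required an adjusted p under 0.05. Adding 1 makes the differences of low genes look smaller than they are. Of the 10 genes, 9 entered the test and IRT2 did not. IRT3, ZIP1, ZIP4, ZIP5 and ZIP11 lay at 1 FPKM or more in all 12 libraries. IRT1, ZIP2, ZIP3 and ZIP9 entered because of their libraries labelled +Fe, so their differences were favoured by the filter.

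IRT1 (AT4G19690, TAIR10 chromosome 4, 10707426 to 10709015) had 5.73, 5.36 and 6.19 FPKM in libraries 1, 2 and 3 of the wild type labelled +Fe and was listed at 0 in all 3 labelled -Fe. In pad4 it had 3.95, 4.74 and 5.12 FPKM at the +Fe label and 0, 0.0682 and 0.0533 FPKM at the -Fe label. Every library labelled +Fe was far above every library labelled -Fe. Because 1 group was listed at 0, no fold is given for the wild type. On the log2(FPKM + 1) scale the fitted difference was -2.76 (SE 0.10, limma adjusted p = 1.96e-09) in the wild type and -2.42 (SE 0.10, limma adjusted p = 5.64e-09) in pad4, and with 0.1 FPKM added in place of 1 it was -5.87 and -5.09. The authors' deposited table calls IRT1 in the wild type (q = 0.000198) but not in pad4, where it gives a log2 fold of -6.83 with q = 0.282.

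IRT2 (AT4G19680, chromosome 4, 10703362 to 10704816), a close relative of IRT1 known from the root epidermis, lies 2609 bp from IRT1 with no gene of the RefSeq annotation between them. It had 0.0703, 0.164 and 0.345 FPKM in the wild type labelled +Fe and 0.0605, 0.0525 and 0.0941 FPKM in the wild type labelled -Fe. In pad4 the values were 0.0983, 0 and 0.129 FPKM at the +Fe label and 0.116, 0 and 0.165 FPKM at the -Fe label. The 4 groups overlapped at this low level. Without the filter on low values no comparison called IRT2, with limma adjusted p from 0.177 to 0.869. How reads shared by the similar IRT1 and IRT2 sequences were assigned is not given in the sources used here.

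IRT3 (AT1G60960, chromosome 1, 22445310 to 22447214) carries Zn and Fe at the plasma membrane. Its levels were 52.0, 43.7 and 47.4 FPKM in the wild type labelled +Fe and 21.6, 20.3 and 20.6 FPKM in the wild type labelled -Fe. In pad4 they were 40.6, 35.0 and 37.9 FPKM at the +Fe label and 15.5, 13.3 and 13.5 FPKM at the -Fe label. All 4 groups were apart, with the wild type labelled +Fe highest and pad4 labelled -Fe lowest. IRT3 was 2.29-fold lower at the -Fe label in the wild type (log2 difference -1.15, SE 0.09, limma adjusted p = 6.9e-07) and 2.69-fold lower in pad4 (-1.36, SE 0.09, limma adjusted p = 1.81e-07).

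ZIP4 (AT1G10970, chromosome 1, 3665087 to 3667139), a Zn transporter gene much used as a marker of Zn shortage, had 44.7, 43.5 and 44.2 FPKM in the wild type labelled +Fe and 5.37, 6.13 and 5.81 FPKM in the wild type labelled -Fe. The pad4 libraries had 33.3, 38.4 and 35.9 FPKM against 4.55, 4.61 and 4.44 FPKM. The groups did not overlap, and replicates of ZIP4 lay close together within each. The fall was 7.66-fold in the wild type (log2 difference -2.74, SE 0.07, limma adjusted p = 1.1e-10) and 7.92-fold in pad4 (-2.73, SE 0.07, limma adjusted p = 1.1e-10).

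ZIP5 (AT1G05300, chromosome 1, 1545106 to 1547849), also under bZIP19 and bZIP23, had 59.9, 50.4 and 60.8 FPKM in the wild type labelled +Fe and 15.0, 13.4 and 15.4 FPKM in the wild type labelled -Fe. Those of pad4 had 42.9, 43.0 and 41.0 FPKM against 11.2, 9.80 and 9.00 FPKM. Again all 4 groups were apart, in the same order as for IRT3. ZIP5 was 3.91-fold lower at the -Fe label in the wild type (log2 difference -1.89, SE 0.09, limma adjusted p = 2.37e-08) and 4.23-fold lower in pad4 (-1.98, SE 0.09, limma adjusted p = 1.61e-08).

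ZIP9 (AT4G33020, chromosome 4, 15932603 to 15934267), a further target of both factors, had 6.68, 4.70 and 6.17 FPKM in the wild type labelled +Fe and 0.0859, 0.309 and 0.134 FPKM in the wild type labelled -Fe. In pad4 it had 6.03, 3.46 and 5.47 FPKM against 0.410, 0.403 and 0.0779 FPKM. Libraries 2 were the lowest of both +Fe-labelled groups, yet each exceeded all libraries labelled -Fe. ZIP9 was 33.2-fold lower in the wild type (log2 difference -2.54, SE 0.19, limma adjusted p = 6.27e-07) and 16.8-fold lower in pad4 (-2.19, SE 0.19, limma adjusted p = 2e-06). Both folds rest on libraries near 0, and without wild type labelled -Fe 2 the first was 53.2-fold. With 0.1 FPKM added the differences were -4.50 and -3.79.

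ZIP1 (AT3G12750, chromosome 3, 4049515 to 4053201), which carries Zn in yeast, had 15.9, 13.2 and 17.3 FPKM in the wild type labelled +Fe and 7.48, 5.23 and 7.79 FPKM in the wild type labelled -Fe. Its pad4 levels were 11.0, 8.40 and 9.60 FPKM against 7.64, 6.38 and 5.48 FPKM. The groups were apart in both genotypes, but in pad4 the gap between them was under 1 FPKM. ZIP1 was 2.27-fold lower at the -Fe label in the wild type (log2 difference -1.08, SE 0.16, limma adjusted p = 0.000154) and 1.49-fold lower in pad4 (-0.51, SE 0.16, limma adjusted p = 0.0168). The pad4 call was lost without pad4 labelled +Fe 1 (-0.42, limma adjusted p = 0.0653) and without pad4 labelled -Fe 3 (-0.41, limma adjusted p = 0.061).

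ZIP2 (AT5G59520, chromosome 5, 23991253 to 23992798), a Zn and Mn transporter known from the root stele, had 3.45, 3.15 and 2.78 FPKM in the wild type labelled +Fe and 0.675, 0.265 and 1.01 FPKM in the wild type labelled -Fe. For ZIP2 in pad4, the values were 2.08, 1.95 and 1.84 FPKM against 0.588, 0.359 and 0.386 FPKM. Both gaps exceeded the spread within groups. ZIP2 was 4.81-fold lower in the wild type (log2 difference -1.35, SE 0.15, limma adjusted p = 2.15e-05) and 4.40-fold lower in pad4 (-1.04, SE 0.15, limma adjusted p = 0.000152).

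ZIP3 (AT2G32270, chromosome 2, 13704221 to 13706860), which carries Zn in yeast, had 2.23, 1.78 and 1.72 FPKM in the wild type labelled +Fe and 0.478, 0.256 and 0.463 FPKM in the wild type labelled -Fe. In pad4 it had 1.28, 1.39 and 1.40 FPKM against 0.452, 0.207 and 0.319 FPKM. Its groups were also apart. ZIP3 was 4.79-fold lower in the wild type (log2 difference -1.06, SE 0.11, limma adjusted p = 1.49e-05) and 4.17-fold lower in pad4 (-0.83, SE 0.11, limma adjusted p = 8.93e-05). With 0.1 FPKM added, the wild-type differences were -2.24 for ZIP2 and -2.04 for ZIP3, and those in pad4 were -1.94 and -1.82.

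ZIP11 (AT1G55910, chromosome 1, 20906134 to 20907413), a less studied family member, moved the other way. It had 60.0, 52.8 and 63.0 FPKM in the wild type labelled +Fe and 84.3, 67.3 and 92.2 FPKM in the wild type labelled -Fe. The corresponding pad4 values were 41.1, 30.9 and 40.0 FPKM against 51.7, 51.8 and 40.3 FPKM. The wild-type groups did not overlap, and the pad4 groups did, since pad4 labelled -Fe 3 lay below pad4 labelled +Fe 1. ZIP11 was 1.39-fold higher at the -Fe label in the wild type (log2 difference 0.46, SE 0.15, limma adjusted p = 0.0214). In pad4 the difference was 0.35 (SE 0.15, limma adjusted p = 0.0575), which missed the threshold. The wild-type call was lost without wild type labelled +Fe 2 (0.38), labelled -Fe 1 (0.42) or labelled -Fe 3 (0.36). In pad4 ZIP11 was called in 7 of 21 alternatives. These were the replicate number as a block (0.35, limma adjusted p = 0.045), quantile normalization (0.41, 0.0411), median centring (0.43, 0.0343), and fits without wild type labelled -Fe 2 (0.35, 0.0356), without pad4 labelled +Fe 1 (0.43, 0.0494), without pad4 labelled -Fe 3 (0.47, 0.02) and without the 4 libraries that stand apart (0.35, 0.00167).

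Counted over the tested family, 8 of 9 genes fell and 1 rose in the wild type, where 26.7% of all tested loci were lower and 25.2% higher. In pad4 8 of 9 fell and none rose (ZIP11, at an unadjusted p under 0.05, was the one not called), where 31.0% of loci were lower and 26.3% higher. Libraries did not overlap in 8 genes that were lower in the wild type and in 8 that were lower in pad4, as in 30.7% and 33.6% of all tested loci, and ZIP11 was apart and higher in the wild type, as were 28.8%. The filter favoured these counts of lower genes, since IRT1, ZIP2, ZIP3 and ZIP9 entered through their libraries labelled +Fe. Among the 5 genes that lay at 1 FPKM or more in all libraries, IRT3, ZIP1, ZIP4 and ZIP5 fell in both genotypes and ZIP11 rose in the wild type. The median log2 difference of these 5, whose entry did not depend on a label, was -1.15 in the wild type and -1.36 in pad4, against -0.02 and -0.05 over all tested loci. The authors' deposited table for the wild type has 9 of 9 tested genes at q under 0.05, and the authors' deposited table for pad4 has 7 of 9, without IRT1 and ZIP1. The authors' own call also needs at least 1 log2 unit. It marks 8 genes in the wild type and 6 in pad4, and ZIP11 in neither.

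Levels of the root and shoot markers are given beside these differences, and their part in them was not tested. The 19 root markers summed to between 333 and 345 FPKM in the wild type labelled +Fe, 339 and 370 FPKM in the wild type labelled -Fe, 321 and 341 FPKM in pad4 labelled +Fe, and 484 and 547 FPKM in pad4 labelled -Fe. Of 11 tested root markers, 3 rose and 1 fell at the -Fe label in the wild type, and 6 rose and none fell in pad4. Of all tested loci, 25.2% rose and 26.7% fell in the wild type, and 26.3% rose and 31.0% fell in pad4. Most of the root marker sums was PYK10, and without it the 4 ranges were 39.5 to 45.8, 44.6 to 52.0, 35.2 to 47.1 and 55.7 to 61.4 FPKM. The 6 shoot markers summed to 7580 to 9153 FPKM in the wild type labelled +Fe and to 11468 to 15654 FPKM in the wild type labelled -Fe. In pad4 they summed to 7605 to 9482 FPKM at the +Fe label and 14124 to 20379 FPKM at the -Fe label. RBCS1A made up most of the shoot marker sums (6626 FPKM on average in the wild type labelled +Fe). In each genotype 4 of the 6 shoot markers rose at the -Fe label and none fell.

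**Figure D3:**
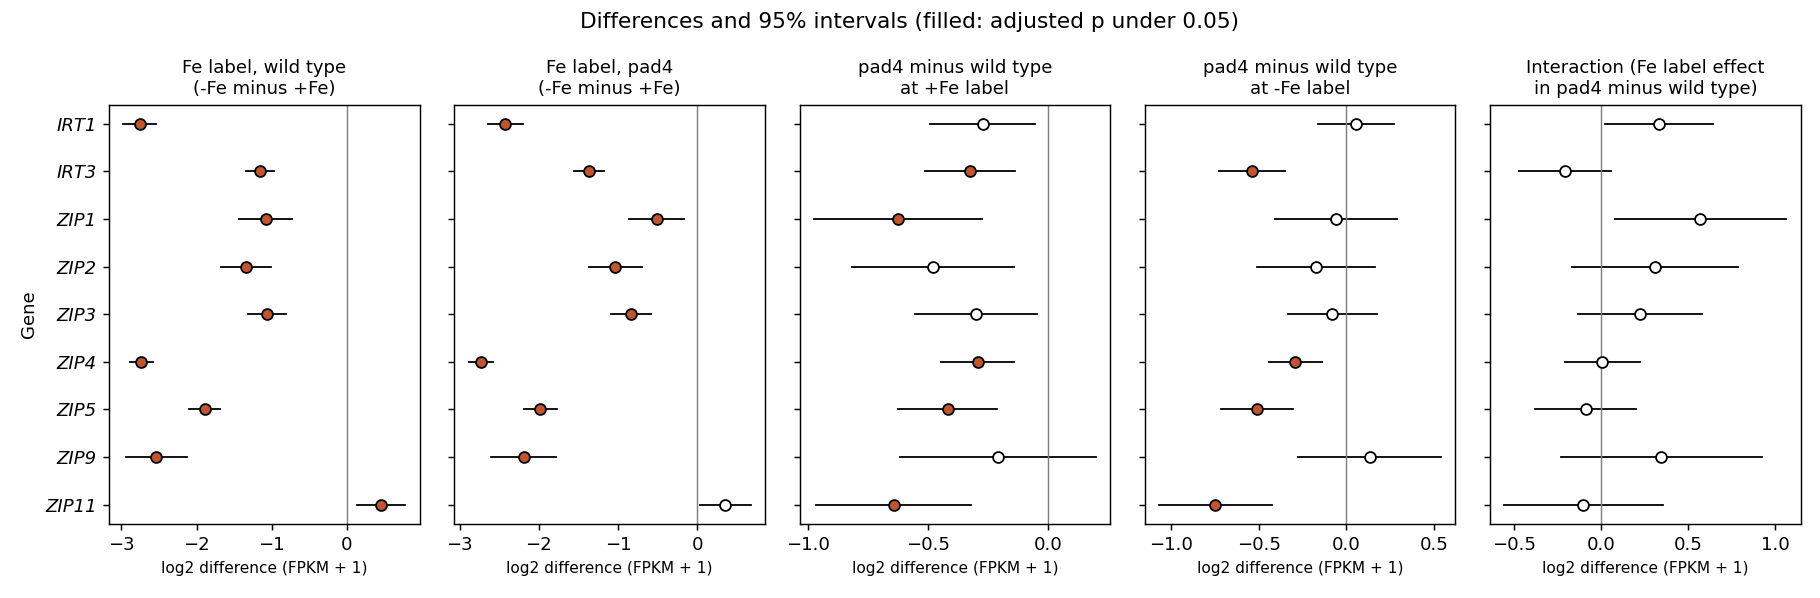
Fitted log2 differences with 95% intervals (x axis, log2 of FPKM + 1, a separate scale per panel) of the 9 tested genes (y axis) in the 5 comparisons, filled where the adjusted p is under 0.05. All genes but ZIP11 lie below 0 in both Fe label panels, all 9 lie below 0 in pad4 against the wild type at the +Fe label, and no interaction is filled.

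The second question is how pad4 differed from the wild type at the same label. At the +Fe label all 9 tested genes had lower means in pad4, and 5 of them were called lower: IRT3, ZIP1, ZIP4, ZIP5 and ZIP11. The differences were modest, from 1.23-fold for ZIP4 to 1.60-fold for ZIP1. At the -Fe label IRT3, ZIP4, ZIP5 and ZIP11 were again lower in pad4, and ZIP1 was not.

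At the +Fe label, ZIP11 averaged 58.6 ± 5.26 FPKM in the wild type and 37.3 ± 5.57 FPKM in pad4, 1.57-fold lower (log2 difference -0.64, SE 0.15, limma adjusted p = 0.0181). ZIP1 averaged 15.5 ± 2.07 and 9.68 ± 1.31 FPKM, 1.60-fold lower (-0.63, SE 0.16, limma adjusted p = 0.0309). ZIP5 averaged 57.0 ± 5.75 and 42.3 ± 1.15 FPKM, 1.35-fold lower (-0.42, SE 0.09, limma adjusted p = 0.0168). In these 3 genes each pad4 library lay below each wild-type library. IRT3 averaged 47.7 ± 4.17 and 37.9 ± 2.80 FPKM (-0.33, SE 0.09, limma adjusted p = 0.0364), a call kept in 12 of 21 alternatives. ZIP4 averaged 44.2 ± 0.600 and 35.9 ± 2.56 FPKM (-0.29, SE 0.07, limma adjusted p = 0.0220). The 4 genes of lower level were not called. IRT1 had a difference of -0.27 (limma adjusted p = 0.121), ZIP2 -0.48 (0.0788), ZIP3 -0.30 (0.138) and ZIP9 -0.21 (0.536). ZIP2 was called lower in 3 of 21 alternatives, with only the compared groups (limma adjusted p = 0.0263), without wild type labelled -Fe 2 (0.0247) and without wild type labelled -Fe 3 (0.0457).

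The count of 5 called lower stands against 5.66% of all tested loci called lower and 3.69% called higher. In 8 of the 9 genes, all but ZIP9, the 3 pad4 libraries lay below the 3 wild-type libraries, as they did in 16.0% of all tested loci. The median log2 difference of the 5 genes at 1 FPKM or more in all libraries was -0.42, against 0.01 over all tested loci. The count fell when single libraries were left out: none was called without wild type labelled +Fe 1 or wild type labelled +Fe 3, 1 (ZIP11) without pad4 labelled +Fe 3, and 2 (ZIP4 and ZIP5) without pad4 labelled +Fe 2. The loci called in all were also fewer then, 1030, 1054, 1208 and 1214 against 1887. Without the 4 libraries that stand apart, 5 genes were called and 3141 loci in all. In the authors' deposited table for this comparison, IRT3, ZIP2, ZIP5 and ZIP11 have q under 0.05 (4 of 9 tested), and ZIP1 (q = 0.284) and ZIP4 (q = 0.0562) do not. The authors' own call, which also needs at least 1 log2 unit, marks none of the family in this comparison.

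At the -Fe label, ZIP11 averaged 81.3 ± 12.7 FPKM in the wild type and 47.9 ± 6.65 FPKM in pad4, 1.70-fold lower (log2 difference -0.75, SE 0.15, limma adjusted p = 0.00265). IRT3 averaged 20.8 ± 0.678 and 14.1 ± 1.23 FPKM, 1.48-fold lower (-0.54, SE 0.09, limma adjusted p = 0.0007). ZIP5 averaged 14.6 ± 1.03 and 9.99 ± 1.09 FPKM, 1.46-fold lower (-0.51, SE 0.09, limma adjusted p = 0.00179). ZIP4 was also lower, at 5.77 ± 0.378 and 4.53 ± 0.0892 FPKM (-0.29, SE 0.07, limma adjusted p = 0.00884), and missed the threshold when only these 2 groups were fitted (limma adjusted p = 0.0697). In each of these 4 genes pad4 lay below the wild type without overlap, as in 19.0% of all tested loci. ZIP1 had 6.83 ± 1.40 FPKM in the wild type and 6.50 ± 1.09 FPKM in pad4, with overlapping libraries and a difference of -0.06 (95% interval -0.41 to 0.29, limma adjusted p = 0.84). IRT1, ZIP2, ZIP3 and ZIP9 lay close to or under 1 FPKM in both genotypes and were not called, with differences from -0.17 to 0.13.

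Here 4 of 9 genes were called lower and none higher, against 14.4% of all tested loci lower and 13.5% higher. The median of the same 5 was -0.51, against 0.01 over all tested loci, and leaving out any 1 of the 12 libraries kept the count at 4. IRT3, ZIP4, ZIP5 and ZIP11 were thus called lower in pad4 at both labels, which held for 592 of the 20173 tested loci (2.93%). At the +Fe label the call was kept in 12 of 21 alternatives for IRT3, 16 for ZIP4, 17 for ZIP5 and 17 for ZIP11. The comparisons share no library, but both were fitted with 1 estimate of the spread over all 12 libraries. The authors' deposited table has 3 of 5 tested genes at q under 0.05 at the -Fe label (IRT3, ZIP5 and ZIP11). With at least 1 log2 unit also required, the authors' own call marks none of the family here. Of the 11 tested root markers, 4 were called higher in pad4 at this label, none lower, and 7 were not called. The root marker sum, most of it PYK10, was highest in pad4 labelled -Fe, with or without PYK10. Their part in the result was not tested.

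Whether the Fe label acted differently in pad4 was asked with the interaction, taken as the label difference in pad4 less the label difference in Col-0. None of the 9 genes was called, where 14.7% of all tested loci were called, and 2 had an unadjusted p under 0.05. ZIP1 had the largest value, 0.57 (95% interval 0.08 to 1.06, limma adjusted p = 0.12), being 2.27-fold lower at the -Fe label in the wild type and 1.49-fold lower in pad4. Without the 4 libraries that stand apart its interaction was 0.53 and was called (limma adjusted p = 0.0439). IRT1 had 0.33 (95% interval 0.02 to 0.64, limma adjusted p = 0.151). For ZIP4 the interval was narrow, 0.01 (95% interval -0.21 to 0.22), and for ZIP11 it was -0.10 (95% interval -0.56 to 0.35). The median of the same 5 was -0.09, against -0.01 over all tested loci.

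Among themselves, the 8 tested genes other than ZIP11 varied together. Over the 12 libraries, Pearson's r of log2(FPKM + 1) ran from 0.84 to 0.99 between them, highest for IRT1 with ZIP4, whereas ZIP11 had r from -0.44 to 0.00 with each. These 12 points fall into the 2 labels, so r mostly reads the label difference. Of 19418 named single-gene loci, those most like IRT1 were AT5G54560, MYB72 and GASA3 (each r = 0.997), and those most like ZIP4 were ABCB4, MYB72 and YSL2 (each r = 0.997). The pattern of ZIP3 was most like that of the nicotianamine synthase gene NAS2 (r = 0.989). IRT3 lay nearest to AT5G02580 (r = 0.995), ZIP5 to SQE3 (r = 0.996), ZIP9 to AT1G47395 (r = 0.994), ZIP2 to AT1G25520 (r = 0.988), ZIP1 to RAV2 (r = 0.984) and ZIP11 to AT4G36945 (r = 0.989).

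Of the remaining 7 ZIP family genes, 4 were tested, and none of these 4 fell at the -Fe label. ZIP7, a metal transporter gene of the same family, had 2.92, 2.45 and 3.24 FPKM in the wild type labelled +Fe and 4.46, 3.39 and 4.50 FPKM in the wild type labelled -Fe. It was higher at the -Fe label in the wild type (log2 difference 0.40, SE 0.14, limma adjusted p = 0.0325) and in pad4 (0.80, SE 0.14, limma adjusted p = 0.000552). IAR1, a transporter of the endoplasmic reticulum first found through auxin conjugates, rose by 0.24 (limma adjusted p = 0.0287) and 0.49 (limma adjusted p = 0.00046). ZTP29, another transporter of that compartment, rose in pad4 (0.32, limma adjusted p = 0.00401) and had a difference of -0.00308 in the wild type, but its interaction was not called (0.33, limma adjusted p = 0.0706). ZIP6 was not called in any comparison. Thus 2 of 4 tested genes rose in the wild type and 3 of 4 in pad4, beside 25.2% and 26.3% of all tested loci, and none was called between genotypes or in the interaction. ZIP12, a target of bZIP19 and bZIP23 that did not pass the filter, had 0.714, 0.411 and 0.746 FPKM in the wild type labelled +Fe and 0, 0 and 0.118 FPKM at the -Fe label. Without the filter its difference was -0.64 (limma adjusted p = 0.00045) in the wild type and -0.69 (limma adjusted p = 0.00024) in pad4. ZIP10 was listed at 0 in all 12 libraries, and ZIP8 was above 0 in 1 of them.

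Outside the family, bZIP19 and bZIP23 also act on NAS2 and NAS4, which make the metal chelator nicotianamine. NAS4 had 215, 182 and 211 FPKM in the wild type labelled +Fe and 11.7, 11.7 and 12.7 FPKM in the wild type labelled -Fe, 16.9-fold lower (log2 difference -3.97, SE 0.10, limma adjusted p = 7.28e-11). In pad4 NAS4 averaged 131 ± 13.9 and 10.8 ± 0.893 FPKM, 12.2-fold lower (-3.48, limma adjusted p = 1.76e-10). At the +Fe label NAS4 was lower in pad4 than in the wild type, without overlap (-0.62, SE 0.10, limma adjusted p = 0.00219). NAS2 fell with the label in both genotypes (-4.55, limma adjusted p = 2.34e-09, and -3.84, limma adjusted p = 9.26e-09) and was lower in pad4 at the +Fe label (-0.74, limma adjusted p = 0.0178). At the -Fe label NAS2 lay at 0 to 0.663 FPKM in the wild type and 0.0898 to 0.215 FPKM in pad4. It entered the test because of its libraries labelled +Fe, so its label differences were favoured by the filter. NAS2 stands on 2 rows of the table, of which the higher was used, and the other held 12.5 to 19.6 FPKM in the wild type labelled +Fe and 5.89 to 8.28 FPKM in pad4 labelled +Fe. The 2 regulators themselves differed little: bZIP19 rose by 0.31 (limma adjusted p = 0.0225) in the wild type and by 0.29 (limma adjusted p = 0.0288) in pad4, and bZIP23 was not called in any comparison.

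**Figure D4:**
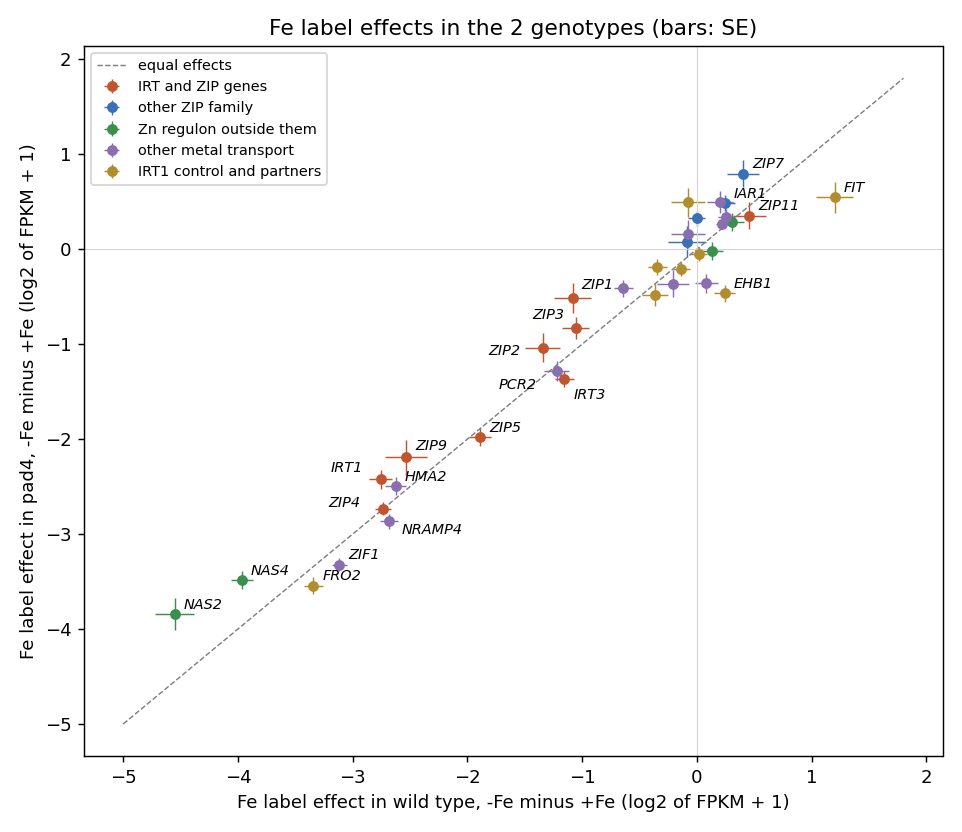
Fe label differences (labelled -Fe minus labelled +Fe, log2 of FPKM + 1, bars SE) in the wild type (x axis) and in pad4 (y axis) for the tested IRT and ZIP genes and 4 related lists, with the dashed line marking equal effects. IRT1, IRT3, ZIP1, ZIP2, ZIP3, ZIP4, ZIP5 and ZIP9 lie in the lower left with NAS2, NAS4, ZIF1, HMA2, NRAMP4 and FRO2.

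Other metal transporter genes were counted beside the family, for efflux, vacuolar storage and release from the vacuole, with the importer NRAMP1 among them. Of 16 listed, 15 had a row of their own and 11 were tested: 2 rose and 5 fell at the -Fe label in the wild type, and 3 rose and 7 fell in pad4. Of all tested loci, 25.2% rose and 26.7% fell in the wild type, and 26.3% rose and 31.0% fell in pad4. ZIF1, a vacuolar nicotianamine transporter gene, fell from 222 ± 2.76 to 24.8 ± 1.20 FPKM in the wild type (log2 difference -3.12, limma adjusted p = 2.37e-11). NRAMP4, which releases Fe from the vacuole, fell by 2.68 on the log2 scale (limma adjusted p = 2.24e-10), HMA2, a Zn pump towards the xylem, fell by 2.63 (limma adjusted p = 1.7e-09), and PCR2, a Zn exporter, fell by 1.22 (limma adjusted p = 2.9e-06). None of the 11 was called between genotypes at the +Fe label by limma, and at the -Fe label HMA4, a pump related to HMA2, was higher in pad4 (0.28, limma adjusted p = 0.0159), as were 13.5% of all tested loci.

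The last list holds 8 genes, which reduce Fe for IRT1, regulate it or act on its protein, apart from the proton pump gene AHA2. At the -Fe label 2 rose and 3 fell in the wild type, and 2 rose and 4 fell in pad4, counts to be read against the same shares of all loci. FRO2, the ferric chelate reductase gene that works with IRT1, fell from 20.0 ± 1.29 to 1.07 ± 0.104 FPKM (log2 difference -3.34, limma adjusted p = 1.17e-10), whereas FIT, the transcription factor gene known to activate both, rose from 0.885 ± 0.377 to 3.28 ± 0.137 FPKM (1.20, limma adjusted p = 7.71e-05). The filter favoured both differences, since FRO2 entered the test through libraries labelled +Fe and FIT through those labelled -Fe. SNX1, a sorting protein gene of IRT1 recycling, and CIPK23, a kinase gene of IRT1 turnover, fell by 0.37 (limma adjusted p = 0.0173) and 0.34 (limma adjusted p = 0.0052). Between genotypes, where 5.66% of all tested loci were lower at the +Fe label and 14.4% at the -Fe label, 1 and 3 of the 8 were lower. AHA2, a proton pump gene, was lower in pad4 at the +Fe label (-0.28, limma adjusted p = 0.0382) and at the -Fe label (-0.34, limma adjusted p = 0.0046). At the -Fe label FIT (-0.83, limma adjusted p = 0.00256) and EHB1, whose protein binds and inhibits IRT1, were lower in pad4, and IDF1, a ubiquitin ligase gene of IRT1, was higher (0.48, limma adjusted p = 0.0342). EHB1, named after its values were seen, averaged 20.2 ± 1.53 FPKM in the wild type and 9.53 ± 1.05 FPKM in pad4 there (-1.01, limma adjusted p = 9.72e-06).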

How the data were processed

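RNA sequencing was deposited as FPKM per locus for 12 libraries, computed by the authors. The build is TAIR10, as the submitters' processing notes have it, and no aligner or counter is given in the sources used here. A second copy of the table differed by at most 0.005 FPKM. In 4 further tables the authors deposited a log2 fold, a p-value and a q-value for pairs of groups, and a test score that was not used, per the file headers. Of the loci, 354 merge more than 1 gene, among them the row with MTP3, which was left out.

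The files hold FPKM and not counts, so limma 3.58.1 (eBayes with trend, R 4.3.3) was run on log2(FPKM + 1) of the 20173 loci that reached 1 FPKM in 3 libraries, with 1 mean per group over 12 libraries and Benjamini-Hochberg adjustment, and was tested on simulated data. Same-numbered libraries of the wild type at both labels and of pad4 labelled +Fe correlated in their deviations (9 pairs, r from 0.12 to 0.51). The 9 pairs with pad4 labelled -Fe ran from -0.42 to 0.14. Some pairs of unlike number were higher: wild type labelled +Fe 1 had r = 0.285 with wild type labelled -Fe 3 and 0.12 with -Fe 1. Across groups, 4 of the 12 libraries were most like one of their own number. Whether the numbers pair libraries is not settled by this data check. Depth is unknown, so no counting intervals are given. Locus spans are those of the table, counted from 1. Members and lists were chosen with earlier results of these data known. All members, other ZIP genes and Zn-regulon genes were named, and up to 4 genes of the 2 further lists by smallest adjusted p in the wild-type label comparison. HMA4, AHA2, EHB1 and IDF1, each called between genotypes, were described outside that rule. Alternatives were no filter, 2 scalings, 0.1 FPKM added, no trend, a replicate block, only the compared groups, a limit of 1 log2 unit and fits without each library; leaving out 4 libraries was added after the data were seen.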

Additional observations from a re-analysis of the deposited data

Results flagged for a closer look

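For 2 genes outside the family the Fe label difference in pad4 differed from that in the wild type by a test of the interaction. NAS4 had an interaction of 0.48 (SE 0.13, limma adjusted p = 0.034), being 16.9-fold lower at the -Fe label in the wild type and 12.2-fold lower in pad4. EHB1 had an interaction of -0.71 (SE 0.13, limma adjusted p = 0.00366): it rose by 0.24 at the -Fe label in the wild type (limma adjusted p = 0.0442) and had a difference of -0.47 in pad4 (limma adjusted p = 0.00115).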

How the results depend on the processing

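Of 936 recomputed values of single IRT and ZIP genes, 875 kept their direction and their side of the threshold, 40 lost a call, 11 gained one and 10 changed sign, all 10 among values that were not called. The count of called genes stayed at 8 to 9 for the Fe label in the wild type and 6 to 9 in pad4. With a limit of 1 log2 unit it was 0 in both genotype comparisons. Leaving out 1 library gave 0 to 6 genes at the +Fe label and 4 throughout at the -Fe label. Without the 4 libraries that stand apart, 1 gene (ZIP1) was called in the interaction. With the replicate number as a block the counts were 9, 9, 5, 4 and 0 (Fe label in the wild type and in pad4, genotype at the +Fe and -Fe labels, interaction), and the block changed no call of the 9 genes but that of ZIP11 in pad4. Changes of sign were those of ZIP1 between genotypes at the -Fe label (-0.21 to 0.044 without 1 library), of the ZIP4 interaction (-0.038 with 0.1 FPKM added, -0.046 to 0.055 without 1 library), of the ZIP11 interaction (-0.23 to 0.016 without 1 library, above 0 without pad4 labelled -Fe 3) and of the ZIP5 interaction (0.018 without the 4 libraries). The cause was not tested. Scaling moved the median of all loci by less than 0.1 log2 units. Depth is unknown, so differences in genes near 0 FPKM, such as IRT2 and ZIP8, may not have been detectable.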
